A study of Mus musculus with 9 samples.

Results

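The interferon response and antigen presentation genes described here were 41 listed mouse genes, taken from a deposited expression table of 84809 gene rows, of which 24946 carried a gene symbol. A row was a member when its symbol field held a listed name. All 41 names were found, on 40 rows, because Ifitm2 and Ifitm3 shared 1 row. The table holds RNA sequencing results for 9 libraries. They were made from newborn mouse dermal cells that a cell sorter had split by surface CD49f, which is integrin alpha 6, into a high, a low and a negative gate. There were 3 libraries for each of CD49f-high, CD49f-low and CD49f-neg, and the labels call the sorted cells mesenchymal and freshly isolated. All 9 libraries came from Krt14 cre;Rosa26-mTmG mice, in which the keratin 14 promoter drives Cre recombinase and the mTmG reporter marks cells with a history of Cre, so no gate lacked these alleles. No library was given an interferon, an infection or another treatment by its labels, and the labels do not say how many animals stood behind a library, their sex or their exact age. The unit was FPKM, a fragment number scaled to transcript length and to the fragments mapped in the library.

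Interferons are secreted proteins that bind paired receptor chains on the cell surface and act through JAK kinases. Type I and type III interferons activate a complex that holds STAT2 and IRF9 and binds the interferon-stimulated response element (ISRE), while interferon gamma acts on genes through the gamma-activated site (GAS), and IRF1 carries part of that response to further genes. The induced proteins include antiviral effectors, guanylate-binding proteins (GBPs), and the machinery that cuts peptides, moves them into the endoplasmic reticulum and loads them on MHC class I. Most cell types, dermal fibroblasts and vessel cells among them, keep a low tonic level of these genes without infection.

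The promoters of the members that differed between gates are shown first, because the ISRE core is the sequence feature that several of them shared. RefSeq promoter windows on GRCm38.p6, each holding 250 bases before and 50 bases after an annotated start, were given for 35 of the 41 members. The windows of Mx1, Mx2, Oas2, Usp18, Rtp4 and Tap2 are not shown here. The ISRE core was searched on both strands as GAAANNGAAA (TTTCNNTTTC on the other strand), and was held by a window of 16 of 35 members, against 3.99% of all 27025 genes with a window. Those 16 were B2m, Bst2, Ddx58, Gbp2, Gbp3, Gbp7, Ifih1, Ifit1, Ifit3, Ifitm2, Ifitm3, Irf2, Isg15, Oas1a, Rsad2 and Stat2. Of the 12 members that differed between gates and had a window, 6 held it. That share is close to the one of all 35, so the core did not set apart the members that differed. These 6 are printed from -150 to 10 bases around the start, with the ISRE core matches in capitals.
Gbp2 chr3:142620513-142620672 (plus strand): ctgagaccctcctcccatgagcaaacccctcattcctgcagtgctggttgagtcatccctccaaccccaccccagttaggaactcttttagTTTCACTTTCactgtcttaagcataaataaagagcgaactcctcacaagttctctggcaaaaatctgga
Gbp3 chr3:142559894-142560053 (plus strand): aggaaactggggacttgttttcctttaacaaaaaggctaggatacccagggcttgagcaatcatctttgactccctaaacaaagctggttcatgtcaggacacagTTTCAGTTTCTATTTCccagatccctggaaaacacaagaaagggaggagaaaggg
Gbp7 chr3:142530186-142530345 (plus strand): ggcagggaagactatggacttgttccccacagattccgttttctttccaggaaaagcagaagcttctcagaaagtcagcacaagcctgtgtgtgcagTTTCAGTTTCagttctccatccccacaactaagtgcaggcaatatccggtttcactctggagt
Isg15 chr4:156200809-156200968 (minus strand): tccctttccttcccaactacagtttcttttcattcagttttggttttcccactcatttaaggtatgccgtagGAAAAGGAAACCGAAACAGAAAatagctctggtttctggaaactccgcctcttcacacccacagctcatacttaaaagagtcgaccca
Bst2 chr8:71537463-71537622 (minus strand): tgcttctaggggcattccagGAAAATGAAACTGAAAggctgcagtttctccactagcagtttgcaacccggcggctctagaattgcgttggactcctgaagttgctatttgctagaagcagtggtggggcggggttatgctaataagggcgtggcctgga
B2m chr2:122147537-122147696 (plus strand): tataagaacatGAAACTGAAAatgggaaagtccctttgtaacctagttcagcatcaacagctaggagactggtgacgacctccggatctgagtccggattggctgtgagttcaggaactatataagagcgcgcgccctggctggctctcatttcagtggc
In Gbp2, Gbp3 and Gbp7, which neighbour each other on chromosome 3, the match lay close to the start, at -59 to -50, -45 to -30 and -53 to -44, and all of them read on the opposite strand. Isg15 held 3 overlapping matches at -78 to -57, and Bst2 held 2 at -130 to -115. The match of B2m lay at -139 to -130. The palindromic GAS core TTCNNNGAA was held by a window of 11 of 35 members, against 9.55% of all genes, and Irf1 was 1 of them, with a match that began at -90. Matches to the 2 motifs can share bases, as the GAS match of Bst2 began at -136, and a match is a description of the letters and not of binding. Tap1 and Psmb9 start on opposite strands of chromosome 17, and the stretch between their RefSeq starts, printed because 1 stretch serves both, held no ISRE core.
Tap1 and Psmb9 chr17:34187331-34187555 (plus strand): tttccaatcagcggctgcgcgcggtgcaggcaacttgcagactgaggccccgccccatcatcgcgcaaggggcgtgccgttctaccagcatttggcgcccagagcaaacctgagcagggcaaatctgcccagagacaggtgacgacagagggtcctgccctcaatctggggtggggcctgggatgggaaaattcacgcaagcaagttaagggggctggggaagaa

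Across the libraries, FPKM summed to 423745 to 543842. The low values of single-exon genes fell on whole multiples of a step within 0.1 of a step in 98.55% to 99.12% of cases, which put 1 FPKM over 1 kilobase at 94.08 to 108.4 counting units. Whether a unit is a whole fragment is not given in the sources used here, so 3 units, or 0.0277 to 0.0319 FPKM over 1 kilobase, serve as a floor for counting error only. Itga6, which encodes CD49f, stood at 15.9, 19.6 and 24.1 FPKM in CD49f-high, 6.05, 4.38 and 6.09 in CD49f-low, and 0.710, 0.433 and 0.283 in CD49f-neg, so the transcript followed the gates. The label mesenchymal was checked against markers, and the 10 fibroblast genes summed to 4054 to 6080 FPKM in CD49f-high, 5625 to 6893 in CD49f-low and 13990 to 17050 in CD49f-neg. CD49f-high replicate 1 stood apart in its 7 adipocyte markers, which summed to 394.4 FPKM there and to 23.2 and 17.5 in the other CD49f-high libraries. CD49f-neg replicate 1 stood highest of its gate for 12 dissociation stress genes on 11 rows, at 3006 FPKM against 2237 and 1745.

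CD49f-high dermal cells carried more RNA of guanylate-binding proteins, of the effectors Isg15 and Bst2, of the transcription factor Irf1, of the receptor chains Ifngr2 and, narrowly, Ifnar2, of the peptide-loading genes Tap2 and Tapbp, and of B2m than CD49f-neg cells, whereas Ifit2 and Ifitm1 were lower. The calls of B2m and Ifitm1, like that of Ifnar2, were lost in some alternative fits. In bulk libraries, more cells of a type and more RNA per cell cannot be told apart. Of the 41 members, 30 passed a filter that asked for 1 FPKM or more in 3 or more libraries, on 29 rows, and 11 did not. Of the 30, 6 met the filter only because their CD49f-high libraries counted towards it (Ifit3, Isg15, Rtp4, Gbp2, Gbp3 and Ifih1), which favours a higher value in that gate among the rows tested. Of the 29 rows, 11 were higher and 2 lower in CD49f-high than in CD49f-neg at an adjusted p under 0.05, where 13.9% and 8.27% of all 20523 rows tested were higher and lower. Leaving those 6 out, the counts were 8 and 2 of 23. Without CD49f-high replicate 1 the count of member rows called was 13, without CD49f-neg replicate 1 it was 12, and with the replicate number as a block it was 17 (15 higher and 2 lower), when 19.7% of all rows were higher and 11.6% lower. Between CD49f-high and CD49f-low, 7 were higher and none was lower, against 5.93% and 10.5% of all rows, and 4 of 23 were higher without those 6. With the block 10 were higher and none lower, against 8.07% and 17.8%.

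Between CD49f-low and CD49f-neg no member row passed, against 12.8% of all rows higher and 2.62% lower. At an unadjusted limma p under 0.05 that contrast had 5 members higher (Gbp2, Gbp3, Irf1, Tapbp and B2m) and 2 lower (Ifit2 and Ifitm1), against 28.0% and 4.87% of all rows. With the replicate block 4 of 29 were called there, all higher, against 28.3% of all rows, and 84.7% of the calls over all rows were higher. After median-of-ratios scaling 2 were called, Ifit2 and Ifitm1, both lower. Leaving out CD49f-high replicate 1, which enters that contrast through the shared spread only, gave 2 calls (Gbp2 and Ifit2), and leaving out CD49f-neg replicate 1 gave 1 (Irf1). The F test over the 3 gates called 11 of 29 member rows, against 28.5% of all rows, and 7 without CD49f-neg replicate 3.

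The contrasts share libraries, and their sizes are given side by side. The median log2 difference of the member rows was 0.38 for CD49f-high minus CD49f-neg, 0.18 for CD49f-low minus CD49f-neg and 0.26 for CD49f-high minus CD49f-low. The same medians over all rows tested were 0.07, 0.21 and -0.15. Median-of-ratios scaling moved these all-row medians to -0.003, 0.0074 and -0.0145, and the member medians to 0.30, -0.04 and 0.37. The share of calls over all rows that were higher was 62.6%, 83.0% and 36.1% as deposited, 52.6%, 50.5% and 54.8% after that scaling, and 48.6%, 50.9% and 52.4% after quantile normalization. Member calls, as higher and lower, were 10 and 2, 0 and 2, and 8 and 0 after median-of-ratios scaling, beside 12.1% and 10.9%, 5.44% and 5.33%, and 7.86% and 6.49% of all rows. They were 9 and 2, 0 and 0, and 8 and 0 after quantile normalization, beside 10.7% and 11.3%, 5.07% and 4.89%, and 7.68% and 6.97%. The mean was highest in CD49f-high for 22 of 29 member rows, against 26.2% of all rows tested. In 17 of the 29 the gate means ran from CD49f-high over CD49f-low down to CD49f-neg, against 21.7% of all rows. The 6 members that met the filter only through CD49f-high are all among the 22, an order that the filter favours. Of them Isg15, Gbp2 and Gbp3 are also among the 17, and the member medians include all 6.

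**Figure D1:**
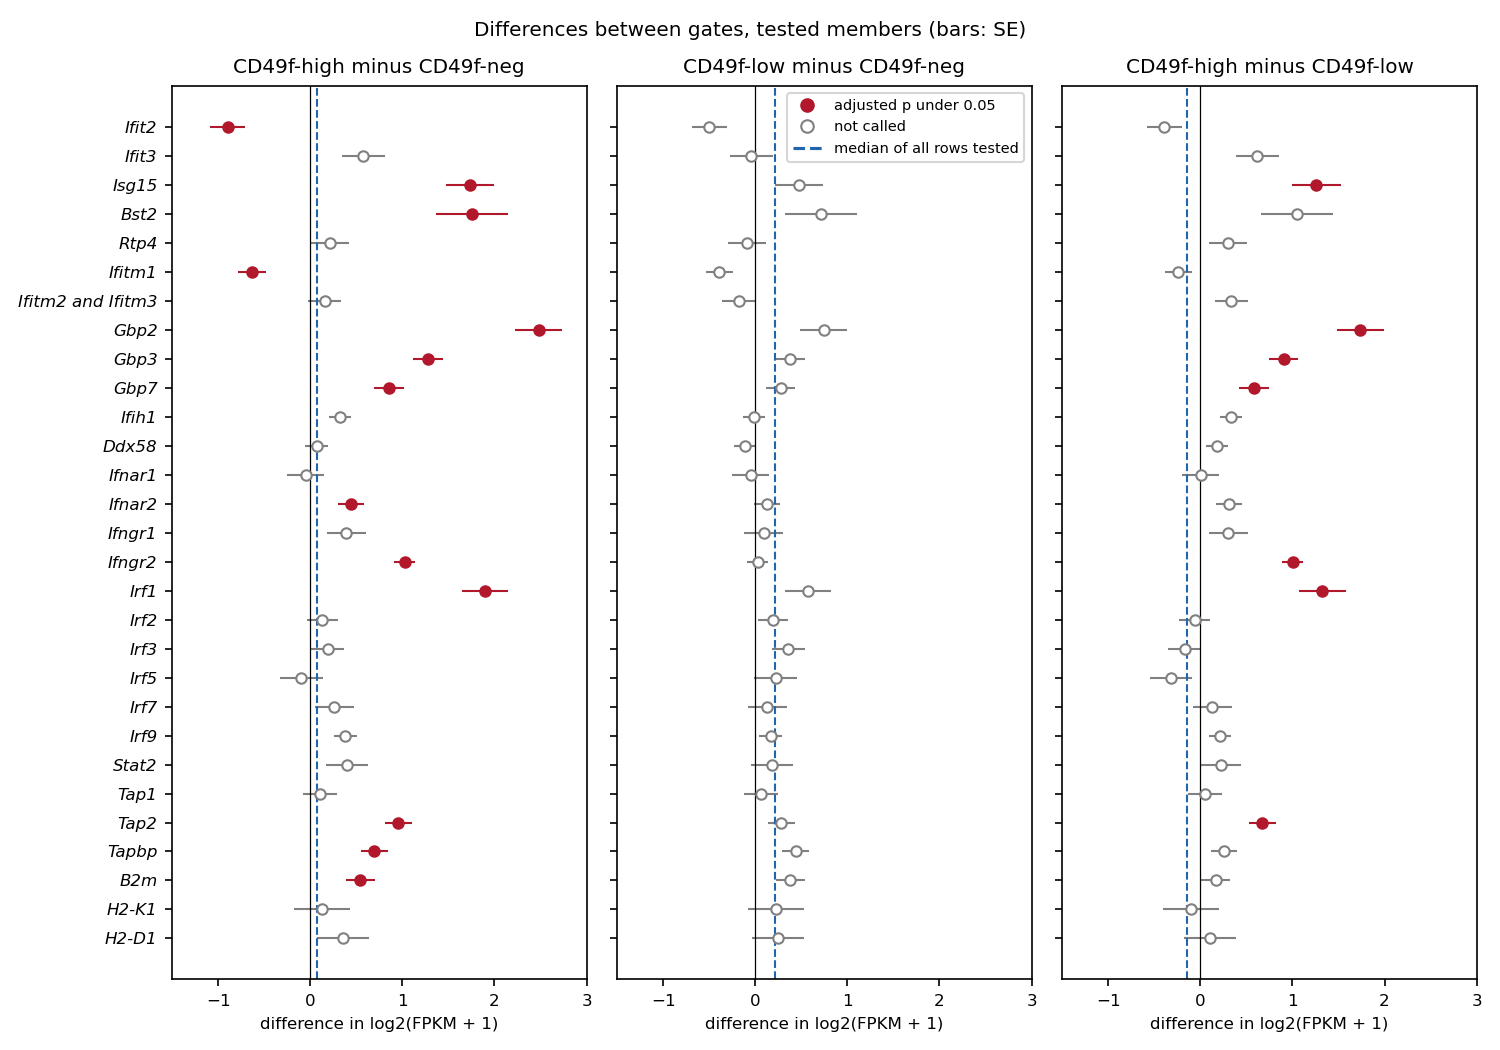
Difference in log2(FPKM + 1) between gates, on the horizontal axis, for the 29 member rows tested, with SE bars (3 libraries per gate). Filled red points passed an adjusted p under 0.05, open points did not, and the dashed line is the median of all 20523 rows. Red points appear in the left and right panels, with Gbp2 farthest to the right in both.

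Markers of other cell types moved with the gates too. Sox10 is in both the melanocyte and the Schwann cell list, and Des in both muscle lists. Higher in CD49f-high than CD49f-neg were 9 of 10 pericyte marker rows tested, 7 of 8 smooth muscle, 4 of 8 blood endothelial, 7 of 7 keratinocyte, 7 of 8 Schwann cell, 6 of 8 melanocyte, 3 of 6 skeletal muscle, 3 of 4 lymphatic endothelial and 1 of 5 adipocyte rows, and lower were 9 of 10 fibroblast, 1 pericyte and 1 lymphatic endothelial rows. None of 3 erythroid rows was called. Between CD49f-high and CD49f-low, 8 of 10 pericyte, 6 of 8 smooth muscle, 6 of 7 keratinocyte, 3 of 8 Schwann cell, 3 of 4 lymphatic endothelial, 2 of 8 blood endothelial and 1 of 6 skeletal muscle rows were higher. Lower there were 5 of 10 fibroblast, 7 of 8 melanocyte, 4 of 6 skeletal muscle, 1 keratinocyte and 1 blood endothelial rows. Between CD49f-low and CD49f-neg, 8 of 8 melanocyte, 6 of 7 keratinocyte, 5 of 6 skeletal muscle, 5 of 8 Schwann cell, 4 of 10 pericyte, 3 of 8 smooth muscle, 2 of 8 blood endothelial and 1 of 5 adipocyte rows were higher. Lower there were 7 of 10 fibroblast rows and 1 pericyte row. Over all rows the shares were 13.9% and 8.27%, 5.93% and 10.5%, and 12.8% and 2.62%. Melanocyte markers summed to 22.6 to 53.8 FPKM in CD49f-high, 438.7 to 534.3 in CD49f-low and 2.67 to 4.12 in CD49f-neg. Pericyte markers summed to 660.9 to 1114 FPKM in CD49f-high, 94.9 to 139.3 in CD49f-low and 113 to 135.3 in CD49f-neg. Blood endothelial markers summed to 36.0 to 54.1, 20.01 to 21.73 and 15.4 to 17.4 FPKM in the same order of gates, with Emcn and Vwf, 2 of the 12, under 1 FPKM in every library. The 20 immune markers summed to 4.06 to 5.90, 4.13 to 5.42 and 1.99 to 3.84 FPKM, 19 of them were under 1 FPKM in every library, and the pan-leukocyte gene Ptprc averaged 0.00587, 0.00359 and 0.00122 FPKM. The exception was Cd68, at 2.06, 2.83 and 1.82 FPKM on average. Dissociation stress genes summed to 2835 to 3337, 2464 to 2876 and 1745 to 3006 FPKM, and 4 of 11 rows were higher in CD49f-high than CD49f-neg. The part of these cell types and of stress in the member differences was not tested.

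The 3 guanylate-binding proteins, interferon-induced GTPases that attack the membranes of intracellular pathogens, were all higher in CD49f-high than in both other gates. Gbp2 and Gbp3 were tested only because of their CD49f-high libraries, and with no filter both stayed called against CD49f-neg (adjusted p = 0.000601 and 0.00137) and CD49f-low (adjusted p = 0.00599 and 0.0117). Gbp2 (chromosome 3, 142620602 to 142638008 on GRCm38) stood at 9.69, 4.82 and 4.79 FPKM in CD49f-high, at 1.04, 1.69 and 0.770 in CD49f-low, and at 0.359, 0.407 and 0.0838 in CD49f-neg. No gate overlapped another, and CD49f-high replicate 1 held the highest value. Its mean FPKM in CD49f-high was 22.7-fold that of CD49f-neg and 5.52-fold that of CD49f-low. As log2(FPKM + 1), a scale that makes changes of weakly expressed genes look smaller, the differences were 2.48 (SE 0.26, adjusted p = 0.000124) against CD49f-neg and 1.74 (SE 0.26, adjusted p = 0.00156) against CD49f-low. Without CD49f-high replicate 1 they were 2.19 (adjusted p = 0.000156) and 1.45 (adjusted p = 0.00230). The difference of 0.74 between CD49f-low and CD49f-neg did not pass (adjusted p = 0.0791), and did so with the replicate number as a block (adjusted p = 0.0404).

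Gbp3 and Gbp7, both of the same chromosome 3 cluster and lower in level than Gbp2 in CD49f-high, showed the same order of gates. Gbp3 stood at 3.23, 2.51 and 3.19 FPKM in CD49f-high, at 0.882, 1.55 and 0.983 in CD49f-low, and at 0.879, 0.604 and 0.446 in CD49f-neg. Its CD49f-high values were all above those of the other gates, by 1.28 log2 units against CD49f-neg (adjusted p = 0.000396) and by 0.90 against CD49f-low (adjusted p = 0.00435). Gbp7, whose row also held Gm43802 and is uncertain as to gene, stood at 1.89, 2.15 and 2.95 FPKM in CD49f-high, 1.05, 1.02 and 1.59 in CD49f-low, and 0.899, 0.947 and 0.640 in CD49f-neg. The 3 gates did not overlap for Gbp7 either. CD49f-high exceeded CD49f-neg by 0.86 (adjusted p = 0.00398) and CD49f-low by 0.58 (adjusted p = 0.0351). The second of these was lost without any of CD49f-high replicates 2 and 3, CD49f-low replicates 1 and 2 and CD49f-neg replicate 2, at adjusted p of 0.052 to 0.130. It was also lost in the fit of the 6 libraries compared (adjusted p = 0.0588) and with no filter (adjusted p = 0.0734). GBP genes are near-identical in stretches, so the split of reads among them depends on the authors' counting.

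**Figure D2:**
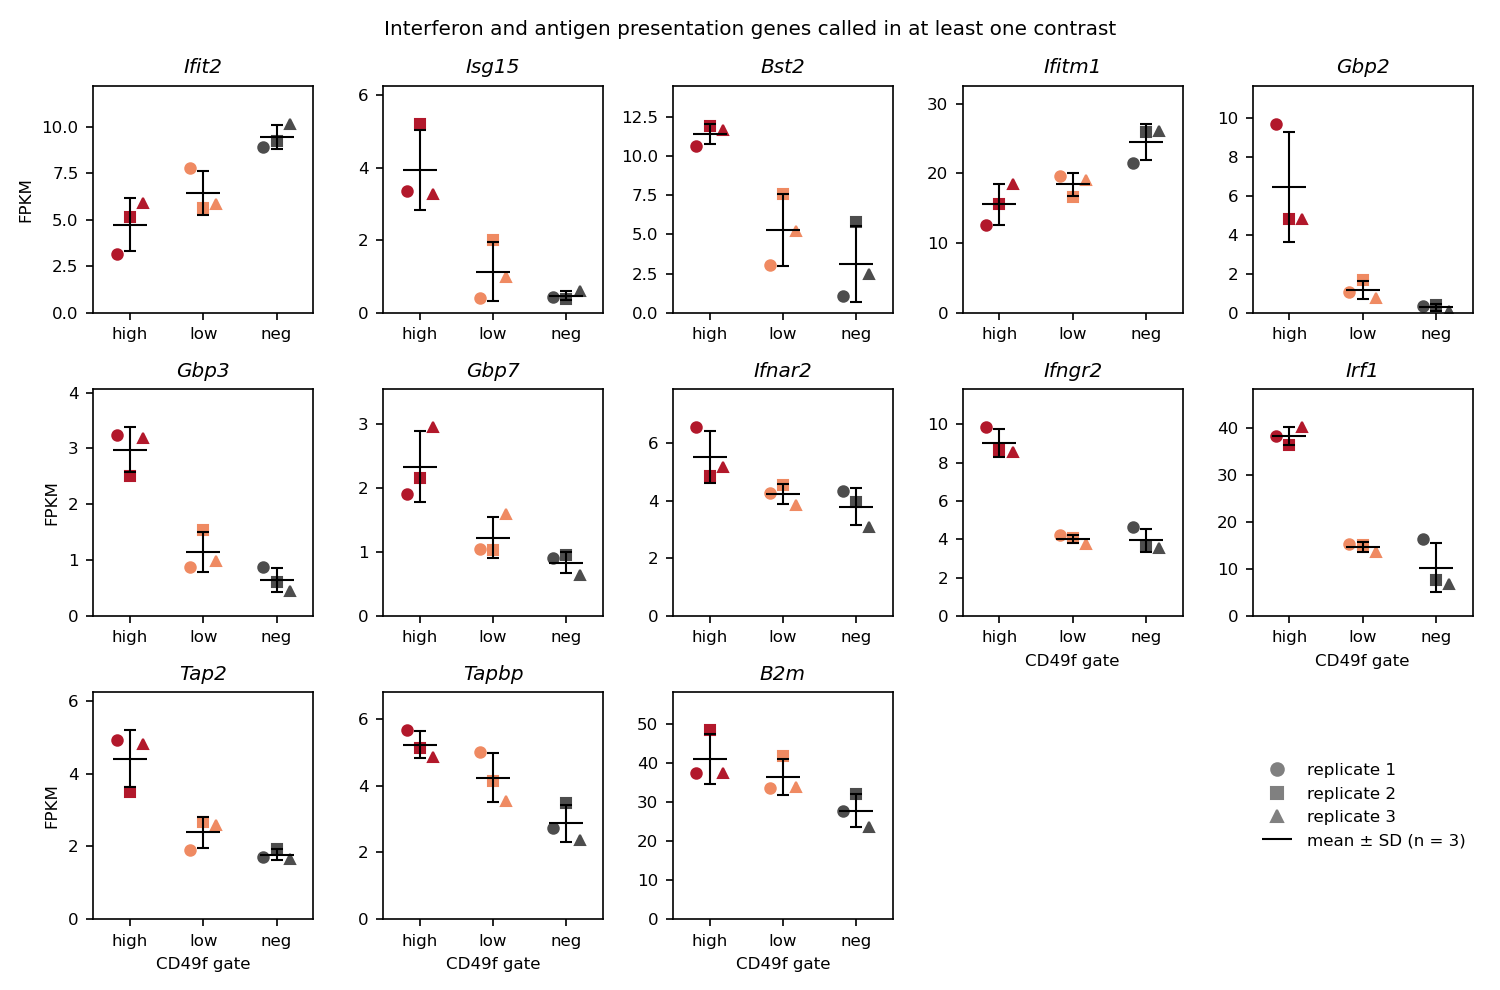
FPKM of the 13 members called in at least 1 contrast, by gate (high, low and neg from left to right), with each library's point shaped by its replicate number and lines for mean ± SD (n = 3). Gbp2, Gbp3, Gbp7, Isg15, Ifngr2, Irf1 and Tap2 sat higher in CD49f-high than in both other gates, and Ifit2 and Ifitm1 ran the other way between CD49f-high and CD49f-neg.

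The antiviral effectors did not move as 1 block. Isg15, a ubiquitin-like protein that is joined to newly made proteins, stood at 3.35, 5.21 and 3.26 FPKM in CD49f-high, at 0.398, 2.02 and 0.986 in CD49f-low, and at 0.421, 0.380 and 0.606 in CD49f-neg. The CD49f-high values were all above the rest, and CD49f-low and CD49f-neg overlapped. The difference was 1.73 (SE 0.26, adjusted p = 0.00122) against CD49f-neg and 1.26 (adjusted p = 0.00987) against CD49f-low. With no filter the adjusted p were 0.00470 and 0.0285. Bst2, the tetherin that holds budding virus particles at the cell surface, stood at 10.7, 11.9 and 11.7 FPKM in CD49f-high, at 3.05, 7.61 and 5.22 in CD49f-low, and at 1.08, 5.76 and 2.50 in CD49f-neg. CD49f-high was narrow and above every other library, while the other gates were wide and overlapped. Against CD49f-neg Bst2 was higher by 1.76 (SE 0.39, adjusted p = 0.0102). Against CD49f-low its difference of 1.05 did not pass (adjusted p = 0.105). It was called under the replicate block (adjusted p = 0.0209), without CD49f-neg replicate 1 (adjusted p = 0.0461) and without CD49f-neg replicate 2 (adjusted p = 0.0421).

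Ifit2 and Ifit3, neighbours on chromosome 19 that encode tetratricopeptide proteins which bind foreign RNA or its translation machinery, took different courses. Ifit2 stood at 3.15, 5.14 and 5.89 FPKM in CD49f-high, at 7.78, 5.60 and 5.87 in CD49f-low, and at 8.90, 9.24 and 10.2 in CD49f-neg. CD49f-neg lay above every library of the other gates, and CD49f-high and CD49f-low overlapped. The row of Ifit2 also covered a further annotated entry with no other symbol and is uncertain as to gene. Ifit2 was lower in CD49f-high than CD49f-neg by a difference of -0.90 (SE 0.19, adjusted p = 0.00801), and lower in 3 of 3 pairs of the same replicate number. The difference of -0.50 between CD49f-low and CD49f-neg did not pass (adjusted p = 0.103). Ifit3 stood at 0.907, 2.20 and 2.60 FPKM in CD49f-high, at 0.563, 1.06 and 0.888 in CD49f-low, and at 0.689, 1.18 and 0.804 in CD49f-neg. Replicate 1 was the lowest of its gate in each case, and CD49f-high overlapped both other gates through it. Differences of 0.58 against CD49f-neg and 0.62 against CD49f-low missed the threshold (adjusted p = 0.114 and 0.108), but passed once the replicate number was a block (adjusted p = 0.0285 and 0.0265) and without CD49f-high replicate 1 (adjusted p = 0.00986 and 0.0109). IFIT genes share near-identical stretches, so reads may have been split among them. Rtp4, a receptor-transporting protein induced by interferon, averaged 1.01 ± 0.286, 0.645 ± 0.361 and 0.740 ± 0.301 FPKM in CD49f-high, CD49f-low and CD49f-neg (SD, n = 3 each), with overlap among all gates.

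The interferon-induced transmembrane proteins, which block virus entry at membranes, included the most abundant member row. The row shared by Ifitm2 and Ifitm3 averaged 70.8 ± 12.2 FPKM in CD49f-high, 55.8 ± 8.89 in CD49f-low and 63.4 ± 10.6 in CD49f-neg, with overlap among the gates and an adjusted p of 0.607 between CD49f-high and CD49f-neg. Since the row covers both genes, their levels cannot be told apart. Ifitm1, the neighbour on the same chromosome 7 cluster, stood at 12.6, 15.7 and 18.5 FPKM in CD49f-high, at 19.7, 16.6 and 19.1 in CD49f-low, and at 21.5, 26.0 and 26.1 in CD49f-neg. CD49f-neg again lay above all other libraries. Ifitm1 was lower in CD49f-high than CD49f-neg by a difference of -0.63 (SE 0.15, adjusted p = 0.0131), in 3 of 3 same-numbered pairs. The call was lost without CD49f-neg replicate 2 (-0.59, adjusted p = 0.052) and without CD49f-neg replicate 3 (-0.59, adjusted p = 0.0556). Ifit2 and Ifitm1 thus shared the order of gates of the fibroblast markers, which were also lower in CD49f-high than in CD49f-neg, and the part of that shift was not tested.

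The RNA sensors Ifih1 and Ddx58, helicases that recognise viral double-stranded RNA and start interferon production, did not pass in any contrast. Ifih1, which reached 1 FPKM in CD49f-high libraries only, stood at 1.23, 1.23 and 1.59 FPKM in CD49f-high, at 0.685, 0.970 and 0.929 in CD49f-low, and at 0.921, 0.900 and 0.803 in CD49f-neg. Its CD49f-high libraries lay above all others, with adjusted p of 0.0901 against CD49f-neg and 0.0939 against CD49f-low, and after quantile normalization the difference of 0.53 against CD49f-low passed (adjusted p = 0.0251). Ddx58 averaged 2.34 ± 0.293, 1.93 ± 0.153 and 2.18 ± 0.285 FPKM in CD49f-high, CD49f-low and CD49f-neg.

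Among the receptor chains, Ifngr2, the signalling chain of the interferon gamma receptor that binds JAK2, was higher in CD49f-high than in both other gates. It stood at 9.86, 8.64 and 8.56 FPKM in CD49f-high, at 4.20, 4.04 and 3.77 in CD49f-low, and at 4.61, 3.66 and 3.54 in CD49f-neg. CD49f-low and CD49f-neg overlapped, and every CD49f-high library was far above both. The row of Ifngr2 also covered a further annotated entry with no other symbol and is uncertain as to gene. The differences were 1.02 (SE 0.12, adjusted p = 0.000222) against CD49f-neg and 1.00 (SE 0.12, adjusted p = 0.000416) against CD49f-low, and that between CD49f-low and CD49f-neg was 0.02 (adjusted p = 0.900). Ifngr1, the ligand-binding chain of the same receptor, stood at 7.94, 6.69 and 5.22 FPKM in CD49f-high, at 6.25, 5.79 and 3.64 in CD49f-low, and at 5.93, 4.62 and 3.85 in CD49f-neg. The gates overlapped, and replicate 1 was highest and CD49f-high above its same-numbered partners in each case. Its difference of 0.39 against CD49f-neg (adjusted p = 0.226) passed only with the replicate block (adjusted p = 0.016), as did that of 0.30 against CD49f-low (adjusted p = 0.361, and 0.050, just under the threshold, with the block).

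Of the type I receptor chains, 1 was called. Ifnar2, the chain with the higher affinity for type I interferons, shared its row with Il10rb and Gm21970 and is uncertain as to gene. It stood at 6.55, 4.86 and 5.15 FPKM in CD49f-high, at 4.26, 4.54 and 3.86 in CD49f-low, and at 4.34, 3.93 and 3.10 in CD49f-neg. The difference of 0.45 against CD49f-neg only just passed (adjusted p = 0.0495), and the call was lost after median-of-ratios scaling (0.36, adjusted p = 0.0776), after quantile normalization (0.30, adjusted p = 0.136) and without any 1 of the 8 libraries other than CD49f-neg replicate 1, at adjusted p of 0.0550 to 0.178. It was also lost in the fit of the 6 libraries compared (adjusted p = 0.0954) and with no filter (adjusted p = 0.120). With untrended variances (adjusted p = 0.0531) and a pseudocount of 0.1 (adjusted p = 0.0501) it was just missed. Ifnar1, the other chain, averaged 6.56 ± 0.790, 6.54 ± 0.587 and 7.04 ± 2.59 FPKM in CD49f-high, CD49f-low and CD49f-neg, and did not pass in any contrast.

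Of the 8 transcription factors listed, Irf1, which interferon gamma and inflammatory cytokines induce and which switches on GBP and class I genes, was the 1 called and the most abundant. It stood at 38.3, 36.5 and 40.3 FPKM in CD49f-high, at 15.4, 15.2 and 13.6 in CD49f-low, and at 16.3, 7.64 and 6.86 in CD49f-neg. CD49f-neg replicate 1 reached the CD49f-low level, the other CD49f-neg libraries did not, and CD49f-high lay above all. The mean FPKM in CD49f-high was 3.73-fold that of CD49f-neg and 2.60-fold that of CD49f-low, and the log2 differences were 1.90 (SE 0.25, adjusted p = 0.000574) and 1.32 (SE 0.25, adjusted p = 0.00629). The difference of 0.57 between CD49f-low and CD49f-neg did not pass (adjusted p = 0.148). Without CD49f-neg replicate 1, which also had the highest stress gene sum of its gate, it was 0.93 (adjusted p = 0.00180).

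The other factors sat at lower and closer levels. Irf9 and Stat2, which both belong to the complex that binds the ISRE, averaged 4.29 ± 0.188, 3.57 ± 0.432 and 3.08 ± 0.492 FPKM, and 5.14 ± 0.759, 4.37 ± 1.35 and 3.71 ± 1.15 FPKM, in CD49f-high, CD49f-low and CD49f-neg. The row of Irf9 also held Rnf31. Their differences of 0.38 (adjusted p = 0.0536) and 0.40 (adjusted p = 0.252) between CD49f-high and CD49f-neg missed the threshold and passed with the replicate block (adjusted p = 0.0173 and 0.022). Irf7, which amplifies type I interferon production, averaged 1.50 ± 0.523, 1.28 ± 0.486 and 1.07 ± 0.353 FPKM. Irf3, its constitutive counterpart, averaged 5.94 ± 1.18, 6.77 ± 1.03 and 5.10 ± 1.19 FPKM, and its difference of 0.36 between CD49f-low and CD49f-neg (adjusted p = 0.193) passed with the block (adjusted p = 0.0393). Irf2, a repressor at IRF1 sites, and Irf5, a factor of inflammatory cytokine genes, had adjusted p of 0.649 and 0.818 between CD49f-high and CD49f-neg, with means of 5.12 to 6.01 and 0.904 to 1.34 FPKM over the gates.

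Peptide transport and loading genes were called in part. Tap2, a subunit of the transporter that moves peptides into the endoplasmic reticulum, stood at 4.92, 3.51 and 4.81 FPKM in CD49f-high, at 1.90, 2.68 and 2.58 in CD49f-low, and at 1.71, 1.94 and 1.66 in CD49f-neg. All CD49f-high libraries were above the rest, and the low and negative gates overlapped by 1 library. For Tap2, CD49f-high exceeded CD49f-neg by 0.96 (SE 0.15, adjusted p = 0.00126) and CD49f-low by 0.67 (adjusted p = 0.0119, and 0.0537 without CD49f-high replicate 3). Tap1, its obligate partner subunit, stood at 1.72, 1.90 and 1.66 FPKM in CD49f-high, at 1.09, 1.95 and 2.09 in CD49f-low, and at 1.13, 1.52 and 2.12 in CD49f-neg, with full overlap and an adjusted p of 0.743 between CD49f-high and CD49f-neg. Whether the 2 subunits differed in their response was not tested. By the row coordinates Tap1 and Psmb9 overlap on opposite strands, with Tap1 from 34187553 and Psmb9 up to 34187764. Their RefSeq starts, used for the promoter stretch, leave a gap between the 2 genes. The strand setting is not given in the sources used here.

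Tapbp, the tapasin that bridges class I to the transporter, stood at 5.66, 5.14 and 4.87 FPKM in CD49f-high, at 5.02, 4.14 and 3.55 in CD49f-low, and at 2.73, 3.48 and 2.38 in CD49f-neg. Its row also held Zbtb22 and is uncertain as to gene. CD49f-neg lay below both other gates, which overlapped each other. CD49f-high exceeded CD49f-neg by 0.69 (adjusted p = 0.00722), and the difference of 0.44 between CD49f-low and CD49f-neg (adjusted p = 0.0700) passed with the replicate block (adjusted p = 0.0288).

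The class I chains were led by B2m, beta-2-microglobulin, the light chain of every class I molecule. It stood at 37.3, 48.4 and 37.3 FPKM in CD49f-high, at 33.6, 41.8 and 33.8 in CD49f-low, and at 27.8, 32.1 and 23.5 in CD49f-neg. Replicate 2 was the highest of each gate, and CD49f-neg lay below all other libraries. The row of B2m also covered a further annotated entry with no other symbol and is uncertain as to gene. The excess of CD49f-high over CD49f-neg was 0.55 (SE 0.16, adjusted p = 0.0327, and 0.00282 with the replicate block). The call was lost without CD49f-high replicate 2 (0.42, adjusted p = 0.110), without CD49f-neg replicate 1 (0.55, adjusted p = 0.0652), without CD49f-neg replicate 3 (0.43, adjusted p = 0.128) and after quantile normalization (0.46, adjusted p = 0.0615). It was also lost in the fit of the 6 libraries compared (adjusted p = 0.0574) and with no filter (adjusted p = 0.0946). With the block the difference of 0.38 between CD49f-low and CD49f-neg also passed (adjusted p = 0.0184, and 0.125 without it). The heavy chains H2-K1 and H2-D1 averaged 1.57 ± 0.794, 1.71 ± 0.706 and 1.34 ± 0.761 FPKM, and 4.13 ± 1.18, 3.75 ± 0.989 and 3.14 ± 1.45 FPKM, in CD49f-high, CD49f-low and CD49f-neg. Neither passed in any contrast. Their rows were shared with H2-K2 and H2-Q3, and class I heavy chain genes are so alike that their FPKM are uncertain.

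Of the 11 members under the filter, Psmb8 and Psmb9 encode catalytic subunits of the immunoproteasome, the interferon-induced form of the proteasome that favours class I peptides. Psmb8 stood at 1.05, 0.909 and 1.13 FPKM in CD49f-high, at 0.330, 0.879 and 0.490 in CD49f-low, and at 0.283, 0.455 and 0.459 in CD49f-neg. Psmb9 stood at 0.237, 0.254 and 0.286 FPKM in CD49f-high, at 0.118, 0.111 and 0.111 in CD49f-low, and at 0.0570, 0.159 and 0.0977 in CD49f-neg. For both, CD49f-high lay above every library of the other gates. Set against the standard subunits that they replace, the ratio of Psmb8 to Psmb5 was 0.0690 ± 0.00480 in CD49f-high, 0.0395 ± 0.0194 in CD49f-low and 0.0330 ± 0.00474 in CD49f-neg. The ratio of Psmb9 to Psmb6 was 0.0123 ± 0.00291, 0.00455 ± 0.000356 and 0.00440 ± 0.00176 in the same order, so for these 2 pairs the inducible subunit's FPKM was far below its standard counterpart's in every gate.

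The third inducible subunit, Psmb10, was no member but belongs to the same particle. It stood at 9.21, 7.31 and 8.66 FPKM in CD49f-high, at 3.36, 3.77 and 3.84 in CD49f-low, and at 2.10, 2.88 and 2.31 in CD49f-neg, with no overlap among the gates. Psmb10 rose in CD49f-high by 1.45 over CD49f-neg (SE 0.13, adjusted p = 4.51e-05) and by 1.01 over CD49f-low (adjusted p = 0.000621). The ratio of Psmb10 to Psmb7 was 0.728 ± 0.0961 in CD49f-high, 0.259 ± 0.0283 in CD49f-low and 0.239 ± 0.0529 in CD49f-neg. None of Psmb5, Psmb6 and Psmb7 passed in any contrast of the main fit. With the replicate block 1 of these 3 was called, higher in CD49f-low than in CD49f-neg.

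**Figure D3:**
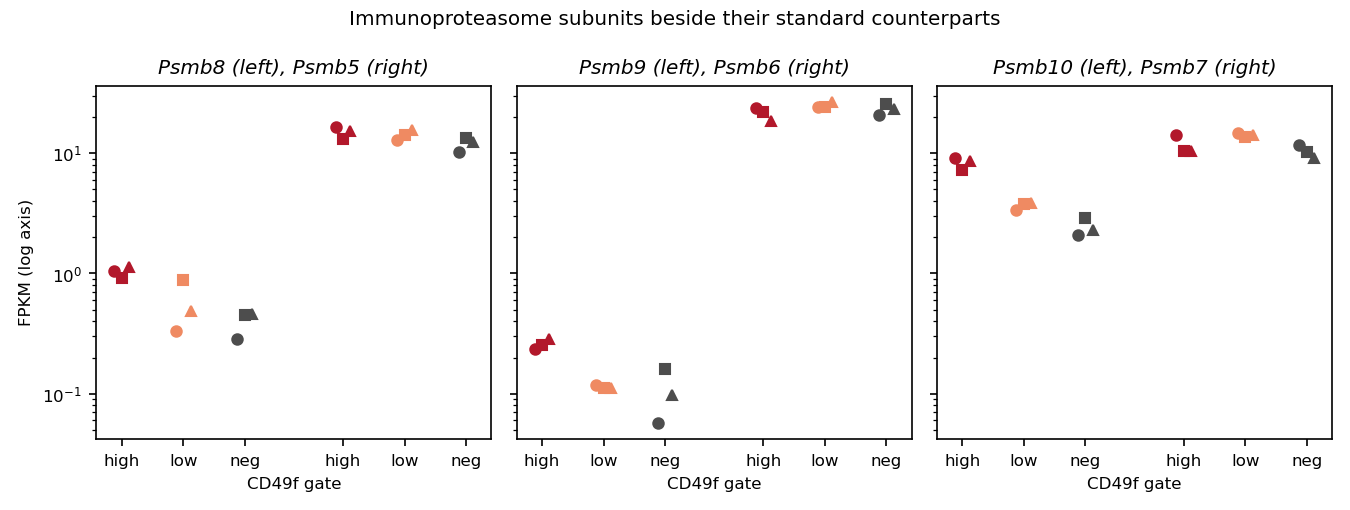
FPKM on a log axis of the inducible proteasome subunits Psmb8, Psmb9 and Psmb10 (left in each panel) and the standard subunits Psmb5, Psmb6 and Psmb7 (right in each panel), by gate from high to neg, 1 point per library, with circles, squares and triangles for replicates 1, 2 and 3. All 3 inducible subunits were highest in CD49f-high, and Psmb10 came closest to its standard counterpart.

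The other 9 members under the filter did not reach 1 FPKM in 3 libraries and were not in the main test. Irf8, a factor of myeloid and dendritic cells, stood at 1.36, 0.739 and 0.886 FPKM in CD49f-high, at 0.196, 0.361 and 0.230 in CD49f-low, and at 0.146, 0.106 and 0.151 in CD49f-neg. No gate overlapped another, and in a fit with no filter Irf8 in CD49f-high exceeded CD49f-neg by 0.80 (adjusted p = 0.00544) and CD49f-low by 0.65 (adjusted p = 0.0204). The 20 immune markers, given above, summed to 4.06 to 5.90 FPKM in CD49f-high, 4.13 to 5.42 in CD49f-low and 1.99 to 3.84 in CD49f-neg, and their part in the Irf8 difference was not tested. Mx2, a dynamin-like antiviral GTPase, stood at 0.818, 0.796 and 1.39 FPKM in CD49f-high, at 0.802, 0.775 and 0.693 in CD49f-low, and at 0.209, 0.251 and 0.279 in CD49f-neg, and in the fit with no filter its CD49f-high mean exceeded that of CD49f-neg by 0.67 (adjusted p = 0.0122). Its relative Mx1 was at most 0.202 FPKM in any library. Ifit1, Oas1a, Oas2, Oasl2, Rsad2 and Usp18 ranged up to 0.759, 0.277, 0.467, 0.731, 0.656 and 0.497 FPKM, and Oas1a was listed at 0 in replicate 1 of CD49f-high and of CD49f-low. In that fit Psmb8 missed the threshold against CD49f-neg (adjusted p = 0.0536), and the remaining 8 had adjusted p of 0.196 or more in that contrast.

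Many members varied with the replicate number as well as with the gate. Replicate 1 was the lowest of its gate in all 3 gates for 10 of 40 member rows, 25.0% against 8.59% of all rows with a mean of at least 0.05 FPKM. These were the effectors Ifit1, Ifit3, Oasl2, Bst2, Rsad2, Usp18 and Rtp4, the receptor chain Ifnar1 and the factors Irf7 and Stat2. Replicate 2 was the highest in all 3 gates for 11 of 40, 27.5% against 8.02%. Oasl2, which encodes a 2'-5'-oligoadenylate synthetase-like protein, stood at 0.197, 0.731 and 0.444 FPKM in CD49f-high, at 0.0472, 0.391 and 0.292 in CD49f-low, and at 0.0514, 0.354 and 0.155 in CD49f-neg, and Usp18, the protease that removes ISG15 and dampens type I receptor signalling, showed the same order of replicates in each gate. Among rows tested, replicate 1 was lowest throughout for 6 of 29 member rows, 20.7% against 12.7% of all 20523. The gamma receptor chains Ifngr1 and Ifngr2 and the factor Irf2 ran the other way, with replicate 1 highest in every gate. Since members of 1 pathway move together, these rows are not independent of each other. Erythroid markers also set replicate 1 apart in 2 gates, with sums of 287.7, 37.4 and 34.8 FPKM in CD49f-high, 292.7, 74.7 and 73.3 in CD49f-low, and 192.9, 119.8 and 473.3 in CD49f-neg, and their part in the order of replicates was not tested. The labels do not say what a replicate number stands for.

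**Figure D4:**
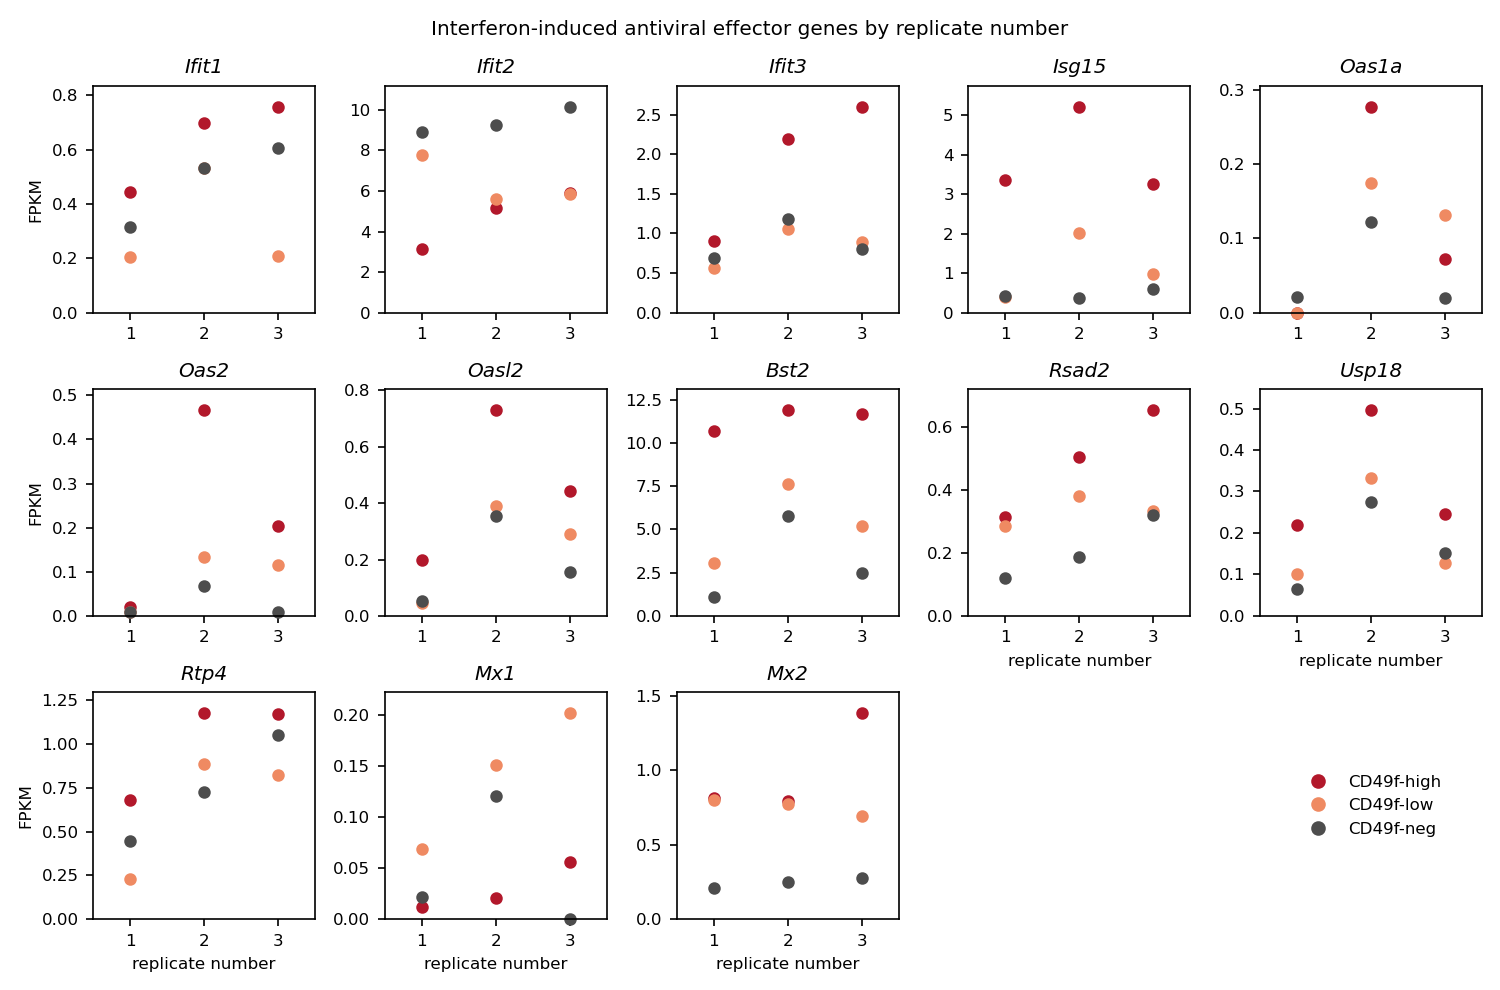
FPKM of the 13 interferon-induced antiviral effector members against replicate number, coloured by gate, 1 point per library. For Ifit1, Ifit3, Oasl2, Bst2, Rsad2, Usp18 and Rtp4 replicate 1 is the lowest point of every gate, and for Oas1a, Oas2, Oasl2, Bst2 and Usp18 replicate 2 is the highest of every gate.

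The genes around the members in the pathway were read from lists of ligands, signalling genes and further targets. Of 10 interferon ligand genes listed 8 were found, none passed the filter, 55 of their 72 values were 0 and the highest was 0.192 FPKM, with Ifnb1, the beta interferon gene, the most abundant on average. Over all 78 rows tested in these lists, members left out, 27 were higher and none lower in CD49f-high than in CD49f-neg, 16 were higher and 2 lower in CD49f-high than in CD49f-low, and 6 were higher and 1 lower in CD49f-low than in CD49f-neg. The last of these counts was 18 higher and 1 lower with the replicate block, and 2 higher and 1 lower after median-of-ratios scaling. Over all rows the shares higher and lower were 13.9% and 8.27%, 5.93% and 10.5%, and 12.8% and 2.62%. Some of the 78 rows met the filter only because their CD49f-high libraries counted towards it, and counts without them are not given. The median log2 differences of the 78 rows were 0.29, 0.07 and 0.21, beside 0.07, -0.15 and 0.21 over all rows. In JAK-STAT signalling and its feedback, 7 of 11 rows tested were higher in CD49f-high than CD49f-neg and none was lower, counting the row shared by Ifnar2 and Il10rb, with a median log2 difference of 0.62. Socs3, a feedback inhibitor of cytokine receptors that IL-6 family cytokines induce, was the most abundant, at 88.1, 87.4 and 90.6 FPKM in CD49f-high, 18.6, 29.4 and 25.4 in CD49f-low, and 14.2, 18.1 and 11.4 in CD49f-neg. The excess over CD49f-neg in CD49f-high was 2.55 (SE 0.19, adjusted p = 1.753e-05). The phosphatase Ptpn1 and the factor Stat3 were also higher in CD49f-high than CD49f-neg, by 0.96 (adjusted p = 0.000362) and 1.21 (adjusted p = 0.00176). Jak2, the kinase bound to IFNGR2, was highest in CD49f-low, at 8.33 ± 1.32 FPKM in CD49f-high, 14.7 ± 1.90 in CD49f-low and 6.57 ± 1.09 in CD49f-neg. It was lower in CD49f-high than in CD49f-low (adjusted p = 0.00758) and higher in CD49f-low than in CD49f-neg by 1.06 (adjusted p = 0.00157). Between CD49f-high and CD49f-neg Jak2 did not pass (adjusted p = 0.190), and did so with the replicate block (adjusted p = 0.0214).

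Of 32 other interferon-induced rows tested, out of 63 genes found, 15 were higher in CD49f-high than CD49f-neg and none was lower. Over all rows the shares were 13.9% and 8.27%. The median log2 difference of the 32 was 0.59. Between CD49f-high and CD49f-low 11 were higher and 1 lower, against 5.93% and 10.5% of all rows. Between CD49f-low and CD49f-neg 2 were higher and none lower, against 12.8% and 2.62%. Some of the 32, Slfn5 and Parp14 among them, reached 1 FPKM in CD49f-high libraries only. For such rows the filter favours a higher value in that gate. The counts above include them, so their distance from the shares over all rows carries that bias. Counts without such rows, and a fit with no filter for Slfn5 and Parp14, are not given. Slfn5, a Schlafen family protein, stood at 5.36, 5.32 and 7.93 FPKM in CD49f-high, at 0.386, 0.660 and 0.580 in CD49f-low, and at 0.112, 0.266 and 0.129 in CD49f-neg, with 2.61 log2 units between CD49f-high and CD49f-neg (SE 0.16, adjusted p = 7.0e-06). Parp9 and Dtx3l, which form an ADP-ribosylation and ubiquitin ligase complex, and Parp14, a related enzyme, were higher in CD49f-high than CD49f-neg by 1.77 (adjusted p = 3.92e-05), 1.11 (adjusted p = 0.000181) and 1.12 (adjusted p = 0.000237). All 4 were higher in CD49f-high than in CD49f-low as well. The most abundant row held Parp10 together with the cytoskeletal gene Plec and is uncertain as to gene.

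In nucleic acid sensing, 3 of 12 rows tested were higher in CD49f-high than CD49f-neg and none was lower, namely the ubiquitin ligase Trim25, the STING gene Tmem173 and the adaptor Myd88, by 1.33 (adjusted p = 0.00105), 0.70 (adjusted p = 0.00302) and 0.83 (adjusted p = 0.00806). Trim25 is also in the list of other interferon-induced genes, and its call counts in both lists. Of 17 other class I assembly rows, 3 were higher and none lower, a share near the 13.9% of all rows, and their median log2 difference was 0.016, beside 0.07 over all rows. Beside Psmb10 these were Psme1, a proteasome activator subunit, by 0.69 (adjusted p = 0.00986), and Erap1, which trims peptides for class I, by 0.52 (adjusted p = 0.0299). Calreticulin, Calr, the most abundant of them, averaged 136.3 ± 29.7, 176.6 ± 30.7 and 148.7 ± 34.8 FPKM in CD49f-high, CD49f-low and CD49f-neg and was not called. These rows, like the members, moved with the marker lists given above, and the part of those was not tested.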

How the data were processed

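The authors deposited 1 table of FPKM values with 1 column per library. The tools named in the submitters' processing notes are FastQC, TopHat2 and StringTie, with GRCm38 as the genome build and no versions, order, strand setting or filters given. Per the labels' protocols, sorted cells went straight into Trizol, and the NEBNext Ultra kit was used for the libraries. Per the file headers, each row gives the symbols and coordinates of the annotated genes it covers, and a row that covers several is uncertain as to gene. That holds also for rows that cover entries with no symbol, as those of Itga6, Jak2, Ptpn1, Trim25, Parp14 and Cxcl10 do.

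The deposited FPKM, with no further scaling, entered as log2(FPKM + 1), and rows were kept at 1 FPKM or more in 3 or more libraries, which left 20523 of 84809. A limma 3.58.1 model (R 4.3.3) with 1 mean per gate, trended empirical Bayes variances and 6 residual degrees of freedom gave the gate differences. P-values had Benjamini-Hochberg adjustment over all rows tested, and called means an adjusted p under 0.05. Every adjusted p printed here comes from these fits. The p-values measure the spread between libraries, which may be technical, since the labels do not say that replicates came from separate animals. No counts were used here, so no count model was fitted, and low FPKM are limited by the counting floor given in the report.

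Libraries of the same replicate number deviated together from their gate means (correlations of 0.252 to 0.520 in 9 pairs), and those of different numbers did not (-0.453 to 0.118 in 18 pairs). Deviations cancel within each gate, so the values for different numbers partly follow from the others and are no separate evidence. From the same-number values, the numbers in the titles were taken to pair the libraries. The main fit leaves this pairing out, so a difference that did not pass there may pass once pairing is used. Member calls were 13, 0 and 7 in the main fit and 17, 4 and 10 with the block. These are for CD49f-high against CD49f-neg, CD49f-low against CD49f-neg and CD49f-high against CD49f-low. The fit with the numbers as a block is given where it changes the call of a member, and for the further lists and markers in part only. The other settings tried were scaling by median of ratios or by quantiles, no filter or one at 5 FPKM, a pseudocount of 0.1, untrended variances, a fit of the 6 libraries compared, and each library left out. The method was tested on simulated data.

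The members and the lists were chosen with earlier results of these data known. Values in every library are given for members called in at least 1 contrast, and of each further list at most the 4 called genes with the smallest F-test p and the most abundant gene are named. Genes outside this rule, or given per library after their values were seen, are Ifit3, Ifngr1, Ifih1, Tap1, Oasl2 and the members under the filter. Some genes of the further lists are not reported here. Protein sequences were not used here. Promoter windows came from RefSeq on GRCm38.p6. Python 3.11.15 (pandas 2.3.3, numpy 2.4.6, matplotlib 3.10.9) served for tables and figures.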

Additional observations from a re-analysis of the deposited data

How the results depend on the processing

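The 31 member differences followed were those called in the main fit or with the replicate block. In the main fit 20 of them, in 13 genes, were called, and 15 of those kept their call in every alternative that tested them. Of the 15, 8 were not tested under the 5 FPKM filter, which drops Isg15, Gbp2, Gbp3, Gbp7 and Tap2. The 5 that lost it in some were Ifitm1, Ifnar2 and B2m between CD49f-high and CD49f-neg, and Gbp7 and Tap2 between CD49f-high and CD49f-low. None of the 31 turned its direction, which their choice by calls favours. Over all alternatives 462 of their values kept direction and side, 30 lost the call and 19 gained it. Differences outside the 31 that passed in some alternative are not in these numbers. Among them were Irf1, Ifit2 and Ifitm1 between CD49f-low and CD49f-neg. The numbers of member rows called under the 5 FPKM filter, which tests fewer rows, were 7 for CD49f-high against CD49f-neg, 2 for CD49f-high against CD49f-low and 6 in the F test. For CD49f-low against CD49f-neg, where the main count was 0, there was 1 call in the fit of 6 libraries (Ifit2), 1 with a pseudocount of 0.1 (Gbp2) and 2 after median-of-ratios scaling. The cause of these changes was not tested.

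Entering the replicate number as a block called 4 member rows between CD49f-low and CD49f-neg and 17 in the F test, and 5806 and 5309 rows in all between CD49f-low and CD49f-neg and between CD49f-high and CD49f-low. In the further lists it called 19 rows between CD49f-low and CD49f-neg. It changed no other member call than those named in the report.

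Over all rows, the 5 FPKM filter called 1911 between CD49f-high and CD49f-neg, 1358 between CD49f-low and CD49f-neg and 1323 between CD49f-high and CD49f-low, and quantile normalization called 2044 between CD49f-low and CD49f-neg. In the further lists, that filter called 12 rows between CD49f-high and CD49f-neg and 9 between CD49f-high and CD49f-low. Between CD49f-low and CD49f-neg the lists had 11 calls with a pseudocount of 0.1 and 3 each with no filter, median-of-ratios scaling and quantile normalization.

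With each library left out in turn, member calls ranged from 10 to 13 for CD49f-high against CD49f-neg, from 5 to 8 for CD49f-high against CD49f-low, from 0 to 2 for CD49f-low against CD49f-neg and from 7 to 12 in the F test. Calls in the further lists ranged from 16 to 28, 12 to 20 and 2 to 10 in the same contrasts, and calls over all rows from 3008 to 4455, 1869 to 3593 and 1342 to 3760. For members under 1 FPKM, a difference that was not called is not shown to be absent.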

Other observations

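Class II antigen presentation genes were measured next to the members. Of 11 genes listed, 1 passed the filter, Ifi30, a lysosomal thiol reductase, which averaged 9.45 ± 0.820 FPKM in CD49f-high, 13.3 ± 1.85 in CD49f-low and 8.51 ± 1.72 in CD49f-neg (SD, n = 3 each) and was called higher in CD49f-low than in CD49f-neg. Ifi30 is also in the list of other interferon-induced genes. Of the class II chains, H2-Eb1, chosen after its values were seen, stood at 1.76, 0.666 and 0.975 FPKM in CD49f-high, at 0.186, 0.212 and 0.0587 in CD49f-low, and at 0.126, 0.154 and 0.0232 in CD49f-neg. Cd74, the invariant chain, also chosen after its values were seen, stood at 0.348, 0.990 and 0.560, at 0.189, 0.208 and 0.201, and at 0.207, 0.0708 and 0.0247 FPKM in the same order of gates. Ciita, the master factor of class II genes, was at most 0.0359 FPKM in any library. H2-DMa, the most abundant of the list after Ifi30, lay closer across the gates. It averaged 1.02 ± 0.260 FPKM in CD49f-high, 0.988 ± 0.159 in CD49f-low and 0.797 ± 0.182 in CD49f-neg. These rows were under the filter and were not tested.

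The replicate numbers also ordered the further interferon-induced genes. Replicate 1 was the lowest of its gate in all 3 gates for 15 of 63 of them, 23.8%, and replicate 2 was the highest for 16 of 63, 25.4%, against 8.59% and 8.02% of all rows with a mean of at least 0.05 FPKM. The chemokine gene Cxcl10, chosen after its values were seen, did not follow this order, at 37.7, 61.0 and 24.5 FPKM in CD49f-high, 35.6, 40.9 and 14.3 in CD49f-low, and 53.0, 27.8 and 13.0 in CD49f-neg.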
